A study of Mus musculus with 7 samples.

Results

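Muscle and heart miRNAs, often called myomiRs, were followed in small RNA bound to Argonaute 2 (Ago2) in mouse plasma. The members were chosen by name: 9 mature miRNAs known for their high expression in skeletal muscle or heart were listed, and 4 of them, miR-133a-3p, miR-133a-5p, miR-133b-3p and miR-208b-3p, were among the 640 miRNAs counted. The other 5, miR-1a-3p, miR-1b-3p, miR-206-3p, miR-208a-3p and miR-499-5p, were not analysed here. MyomiRs are encoded in or beside muscle genes, are switched on by the transcription factors of muscle differentiation, and help to set the balance between proliferation and differentiation. They are known as plasma markers of muscle and heart injury. Ago2 is the protein that carries a mature miRNA to its targets, and it protects miRNAs from plasma nucleases.

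Plasma came from adult male C57BL/6JOlaHsd mice, given as c57 in the labels, with an age not given in the sources used here. Status epilepticus (SE), a prolonged seizure, was triggered by kainic acid, a glutamate receptor agonist, injected into the amygdala through an implanted cannula, and was followed by an anticonvulsant benzodiazepine. Control mice received PBS by the same route. Each of the 7 libraries was a pool of plasma from 10 mice, so that there was 1 library per condition: control at 4 h, 8 h and 24 h, and SE at the same 3 times and after 2 weeks. The library from 2 weeks after SE was compared with control 24 h, a control that it shares with SE 24 h. Individual mice, muscle and heart were not sampled.

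The libraries held 2043220 counts (control 4 h), 5405357 (SE 4 h), 3529563 (control 8 h), 3166964 (SE 8 h), 3412752 (control 24 h), 3718313 (SE 24 h) and 2541062 (SE 2 weeks). Levels are CPM, counts per 1000000 counts of the library, on library sizes adjusted by the trimmed mean of M-values (TMM), a scaling that gives little weight to the most abundant miRNAs. Intervals in parentheses are 95% counting intervals, Wilson intervals for shares and exact Clopper-Pearson intervals for folds, and they cover counting error only. Within a library, low counts clustered near a single value, from 33.1 in SE 2 weeks and 37.6 in SE 4 h to 102 in control 4 h. This value was taken as the number of reads from 1 captured molecule, and a count divided by it is called estimated molecules below. A pool with fewer contributing cells and one with less miRNA released per cell cannot be told apart in such data.

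miR-133a-3p, the guide strand of miR-133a which represses serum response factor, was the most abundant member in every library. Its level was 888 CPM in control 4 h (1548 counts), 1104 CPM in SE 4 h (4699 counts), 793 CPM in control 8 h (3419 counts) and 1439 CPM in SE 8 h (5242 counts). It was 75.5 CPM in control 24 h (298 counts), 180 CPM in SE 24 h (505 counts) and, at 2 weeks, 116 CPM in SE (359 counts). The 4 libraries of 4 h and 8 h, control and SE alike, were all above the 3 later ones. So were those of 20 of the 208 miRNAs that reached 50 CPM in some library, 9.62%. For miR-133a-3p the SE libraries of 24 h and 2 weeks were thus below the controls of 4 h and 8 h. Among the miRNAs of each library it ranked 35th to 45th at 4 h and 8 h, and 93rd to 114th later. In estimated molecules the 7 libraries held 15, 125, 57, 101, 5, 11 and 11, in the same order.

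miR-133a-5p, the opposite strand of the same hairpins, was counted in the early libraries only. It had 184 counts in control 4 h (106 CPM), 223 in SE 4 h (52.4 CPM), 40 in control 8 h (9.28 CPM) and 264 in SE 8 h (72.5 CPM). It had 0 counts in control 24 h, SE 24 h and SE 2 weeks, and 3 counts, the floor used for folds against 0, correspond to 0.760, 1.07 and 0.972 CPM there. miR-133a-5p was thus counted in the 4 libraries in which miR-133a-3p was high, but in control 8 h it lay below the level of 1 estimated molecule, 14.0 CPM, and SE and control libraries overlapped. The 5p arm made up 10.6% (9.26 to 12.2) of miR-133a counts in control 4 h, 4.53% (3.98 to 5.15) in SE 4 h, 1.16% (0.850 to 1.57) in control 8 h and 4.79% (4.26 to 5.39) in SE 8 h. With 298, 505 and 359 counts of both arms together in the 3 later libraries, the upper Wilson limit of the 5p share was 1.27%, 0.755% and 1.06% there, below the shares of control 4 h, SE 4 h and SE 8 h. Against the interval of control 8 h, only the limit of SE 24 h lay below it. The early 5p counts stand for about 2, 6, 1 and 5 estimated molecules. The later counts, all miR-133a-3p, stand for about 5, 11 and 11. The upper limits above take reads as independent and are too low for so few molecules, so a change of arm share with time cannot be read from them.

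miR-133b-3p, the product of the skeletal muscle locus shared with miR-206, followed another order. Its level was 56.8 CPM in control 4 h (99 counts), 128 CPM in SE 4 h (546 counts), 16.7 CPM in control 8 h (72 counts) and 123 CPM in SE 8 h (447 counts). It was 16.7 CPM in control 24 h (66 counts), 86.7 CPM in SE 24 h (243 counts) and, at 2 weeks, 0.648 CPM in SE (2 counts). The 3 SE libraries of 4 h, 8 h and 24 h were all above the 3 controls, with no overlap. So were those of 21 of the 206 miRNAs that reached 50 CPM in some library, 10.2%. For miR-133b-3p, SE 2 weeks was the lowest of all. Each control held about 1 estimated molecule, against 15, 9 and 5 in the SE libraries of 4 h, 8 h and 24 h and 0 at 2 weeks.

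miR-208b-3p, encoded within the gene of the slow and fetal cardiac myosin heavy chain, is made in heart, and slow skeletal fibres use the same host gene. It had 0 counts in control 4 h, 65 in SE 4 h (15.3 CPM), 62 in control 8 h (14.4 CPM) and 0 in SE 8 h. It had 97 counts in control 24 h (24.6 CPM), 0 in SE 24 h and, at 2 weeks, 9 in SE (2.92 CPM). No library reached 50 CPM, the minimum for testing, and no order by treatment or time was seen in counts that stand for 0 to 2 estimated molecules. It was thus close to the detection limit in all 7 libraries. miR-133a is made in heart and skeletal muscle alike.

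**Figure D1:**
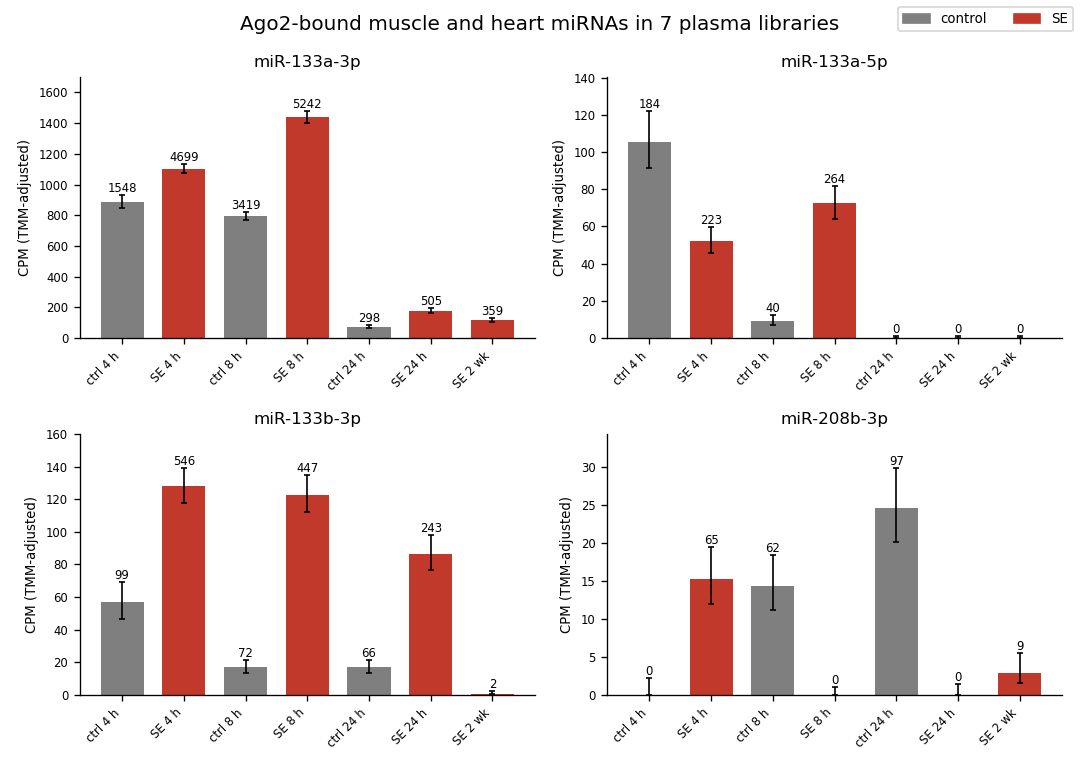
Level of each of the 4 counted muscle and heart miRNAs in the 7 plasma libraries, in TMM-adjusted CPM on linear axes that start at 0 and differ between panels. Bars are single libraries (grey control, red SE), error bars are 95% Wilson counting intervals, and the number above each bar is the count; miR-133a-3p is high at 4 h and 8 h, miR-133a-5p has counts at 4 h and 8 h only, 40 of them in control 8 h, and miR-133b-3p is higher in SE than in control at 4 h, 8 h and 24 h and has 2 counts at 2 weeks.

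The first question was whether SE plasma differed from control plasma at the same time-point. Each pair was compared by edgeR's exact test with an assumed biological coefficient of variation (BCV) of 0.1, taking each miRNA that reached 50 CPM in 1 library of the pair or in both. Calls required both an unadjusted p below 0.05 and a difference of 1.5-fold or more. A member that reached the minimum in only 1 library of a pair had to be higher in that library, so the number of members called in 1 direction is a count and supports nothing where this is noted. The test sets 2 libraries against each other and not the conditions, the differences have no replicate check, and no p is given. The BCV of 0.1 is an assumption. Estimated from the 3 SE and 3 control libraries of 4 h, 8 h and 24 h, the BCV was 0.563, and 0.553 with time-point in the model. Both are above 0.1 and above the largest alternative used, 0.4.

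At 4 h, 3 of the 4 members were tested and 2 were called, 1 higher and 1 lower, where 67.2% of all 189 miRNAs tested were called (32.3% higher, 34.9% lower). miR-133b-3p was higher in SE, with a log2 fold change of 1.17, which is 2.26-fold (1.82 to 2.83). miR-133a-5p was lower, with a log2 fold change of -1.01. miR-133a-3p differed by 0.31 on the log2 scale and was not called. At BCV 0.4 and in estimated molecules no member was called. With the 3 control libraries pooled all 3 tested were called higher (46 higher and 26 lower of all 152 miRNAs tested), so that the direction of miR-133a-5p turned. In that setting miR-133a-5p and miR-133b-3p reached the minimum in SE 4 h alone. A share of 2 in 3 is no more than the background of this pair of libraries, the most unlike in depth.

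At 8 h, 3 of the 4 members were tested and called higher in SE, where 50% of the 154 miRNAs tested were called (35.1% higher, 14.9% lower). miR-133a-5p and miR-133b-3p reached the minimum in SE 8 h alone, and miR-208b-3p, with 62 counts in control and 0 in SE, in neither. The log2 fold change of miR-133a-5p was 2.96, from 40 to 264 counts. That of miR-133b-3p was 2.88, which is 7.35-fold (5.72 to 9.56). miR-133a-3p was 1.82-fold higher (1.74 to 1.90), a log2 fold change of 0.86. At BCV 0.4 miR-133a-3p was no longer called, and in estimated molecules miR-133a-5p was not.

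At 24 h, 2 of the 4 members were tested and called higher in SE, where 44.7% of the 141 miRNAs tested were called (24.8% higher, 19.9% lower). miR-133b-3p reached the minimum in SE 24 h alone, and miR-208b-3p, with 97 counts in control and 0 in SE, in neither. miR-133a-3p was 2.38-fold higher (2.06 to 2.76), a log2 fold change of 1.25. miR-133b-3p was 5.18-fold higher (3.93 to 6.91), a log2 fold change of 2.37. At this time-point scaling by library size alone moved the median log2 fold change of all miRNAs tested from 0.04 to -0.64 and the calls from 35 higher and 28 lower to 13 higher and 75 lower, and both members stayed called higher, with log2 fold changes of 0.64 for miR-133a-3p, just past 1.5-fold, and 1.75 for miR-133b-3p. Against the 3 control libraries pooled the direction of miR-133a-3p turned (log2 fold change -1.60, called lower). At BCV 0.4 miR-133a-3p was no longer called, and in estimated molecules neither was.

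At 2 weeks, miR-133a-3p was the single member tested and was called higher than in the 24 h control, where 31.7% of the 145 miRNAs tested were called (18.6% higher, 13.1% lower). It was 1.54-fold higher (1.32 to 1.80), a log2 fold change of 0.62, and was no longer called at BCV 0.2, at BCV 0.4 or in estimated molecules, where the interval of 0.541 to 6.20 includes no change. Against the controls of 4 h and 8 h the direction turned, with log2 fold changes of -2.93 and -2.77. miR-133b-3p did not reach 50 CPM in either library and had 66 counts in control 24 h and 2 in SE 2 weeks, a ratio of 25.8-fold lower (6.87 to 218). In estimated molecules this is 1 against 0.

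**Figure D2:**
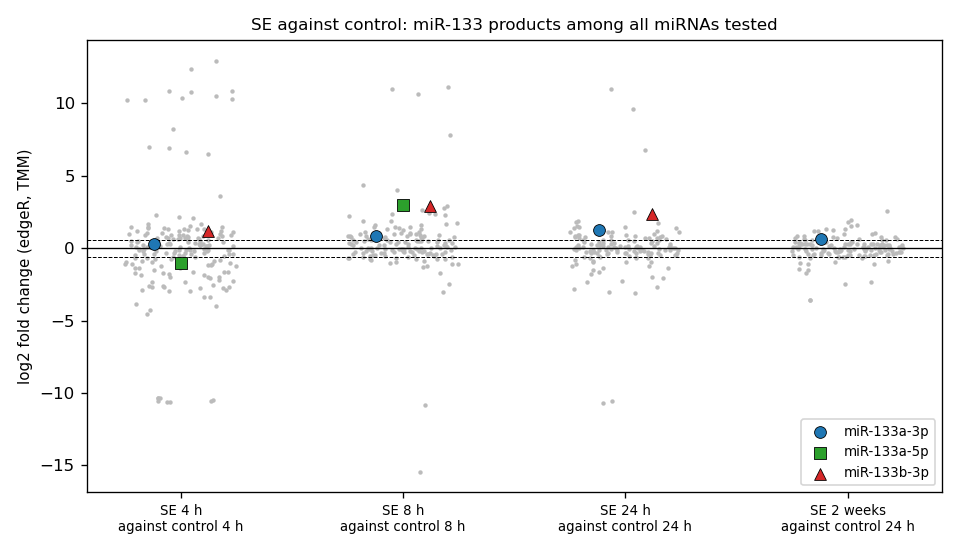
Log2 fold change (y axis, edgeR with TMM) of SE against control in the 4 comparisons (x axis), 1 library a side; grey points are all other miRNAs tested, spread sideways at random, coloured symbols are the miR-133 products tested, and dashed lines mark 1.5-fold. miR-133b-3p lies at 1.17, 2.88 and 2.37 at 4 h, 8 h and 24 h, and miR-133a-5p at -1.01 at 4 h and 2.96 at 8 h.

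The precision of these folds depends on what is counted. In estimated molecules miR-133a-3p was 1.81-fold higher in SE at 8 h (1.29 to 2.55) and 2.54-fold higher at 24 h (0.812 to 9.31). miR-133b-3p was 9.18-fold higher at 8 h (1.27 to 403), 5.76-fold at 24 h (0.645 to 273) and 2.26-fold at 4 h (0.347 to 94.9). Of the SE against control differences, those at 8 h of these 2 miRNAs had an interval above 1 when molecules were counted.

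The 3 SE and 3 control libraries of 4 h, 8 h and 24 h were also compared together. The 3 libraries of a side come from different time-points and do not replicate a condition, so their spread includes time. For miR-133b-3p the mean was 113 ± 22.6 CPM (SD, n = 3) in SE and 30.1 ± 23.2 CPM (SD, n = 3) in control. The lowest SE library, at 86.7 CPM, was above the highest control, at 56.8 CPM, and 21 of the 206 miRNAs that reached 50 CPM in some library, 10.2%, had all 3 SE libraries above all 3 controls, while 6.80% had them all below. The exact two-sided permutation test gave p = 0.1, the smallest that 3 against 3 libraries allow. For miR-133a-3p the mean was 908 ± 652 CPM (SD, n = 3) in SE and 586 ± 444 CPM (SD, n = 3) in control, and the exact permutation p was 0.5. For miR-133a-5p it was 1.

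In edgeR's quasi-likelihood test with Benjamini-Hochberg adjustment the log2 fold change of miR-133b-3p was 1.93 ± 0.775 (standard error), with an adjusted p of 0.369, and it was higher in SE at 3 of 3 time-points. That of miR-133a-3p was 0.61 ± 0.937 (standard error), with an adjusted p of 0.885, also higher at 3 of 3. With miR-486b-5p left out of the totals miR-133a-3p was lower in SE at 4 h, at 2677 CPM against 3165 CPM in control. Of the members only these 2 were tested. With TMM over the 6 libraries, miR-133a-5p and miR-208b-3p did not reach 50 CPM in 3 of them. None of the 136 miRNAs tested passed (0%), while 11.0%, 15 miRNAs, had an unadjusted p under 0.05, miR-133b-3p among them. DESeq2 called 13 of 573 miRNAs, no member among them. Without control 4 h, the smallest library, the log2 fold change of miR-133b-3p was 2.72, and with each of the other libraries left out it was between 1.64 and 2.14. That of miR-133a-3p was 0.06 without SE 8 h and 0.09 without control 24 h, and 1.14 without SE 24 h.

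The second question was how the members differed between time-points within a treatment. In control plasma, 3 of the 4 members were tested and called lower at 24 h than at 4 h, where 69.6% of the 181 miRNAs tested were called (26.5% higher, 43.1% lower). miR-133a-5p and miR-133b-3p reached the minimum in control 4 h alone, and miR-208b-3p, with 0 counts at 4 h and 97 at 24 h, in neither. miR-133a-3p was 11.8-fold lower at 24 h (10.4 to 13.4), a log2 fold change of -3.56. miR-133a-5p went from 184 counts to 0, which is 139-fold lower with the 0 set at the floor of 3 counts, with a lower 95% counting limit of 112-fold. In estimated molecules this was 2 against 0, and the limit of 0.789-fold lower includes no change. miR-133b-3p was 3.40-fold lower (2.46 to 4.71), between counts of 99 and 66 that both stand for 1 estimated molecule.

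Between the controls of 8 h and 24 h, miR-133a-3p was the single member tested and was called lower at 24 h, where 45.4% of the 141 miRNAs tested were called (26.2% higher, 19.1% lower). It was 10.5-fold lower (9.32 to 11.9), and 11.4-fold lower (4.61 to 36.4) in estimated molecules. miR-133b-3p was close to level between them, with a ratio of 1.00 (0.706 to 1.42). Between the controls of 4 h and 8 h, 2 of 3 members tested were called, both lower at 8 h, where 59.3% of the 177 miRNAs tested were called (15.3% higher, 44.1% lower). These were miR-133a-5p, with a log2 fold change of -3.50, and miR-133b-3p, with -1.76, both past the minimum in control 4 h alone, whereas miR-133a-3p, with -0.16, was not called.

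In SE plasma, 2 of 3 members tested were called higher at 4 h than at 24 h, where 52.6% of the 152 miRNAs tested were called (37.5% higher, 15.1% lower). miR-133a-3p was 6.13-fold higher at 4 h (5.59 to 6.73). miR-133a-5p was 49.0-fold higher against the floor of 3 counts, with a lower counting limit of 39.5-fold, and in estimated molecules, 6 against 0, the limit of 0.645-fold includes no change. At 8 h against 24 h, the same 2 of 3 were called higher, where 55.5% of the 155 miRNAs tested were called (32.9% higher, 22.6% lower). miR-133a-3p was 7.99-fold higher at 8 h (7.29 to 8.77). miR-133a-5p was 67.8-fold higher against the same floor, with a lower counting limit of 54.7-fold, and in estimated molecules, 5 against 0, the limit of 0.811-fold includes no change. miR-133b-3p, with log2 fold changes of 0.57 at 4 h and 0.50 at 8 h, was called in neither. In both, miR-133a-5p reached the minimum in the early library alone. Both comparisons share the 24 h SE library, and the SE time comparisons were chosen after the levels were seen.

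From 24 h to 2 weeks after SE, 2 of the 4 members were tested and called lower, where 39.6% of the 144 miRNAs tested were called (20.8% higher, 18.8% lower). miR-133b-3p reached the minimum in SE 24 h alone. miR-133a-3p was 1.55-fold lower at 2 weeks (1.35 to 1.78), a log2 fold change of -0.63. By library size alone this direction turned, with 136 CPM in SE 24 h and 141 CPM at 2 weeks. It held with DESeq2 size factors (182 and 114 CPM) and with miR-486b-5p left out of the totals (568 and 384 CPM). In estimated molecules, 11 against 11, the interval of 0.591 to 3.82 includes no change. miR-133b-3p went from 243 counts to 2, a ratio of 134-fold lower (36.6 to 1111), and from 5 estimated molecules to 0.

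Over all 7 libraries, miR-133a-3p and miR-133a-5p had the 4 libraries of 4 h and 8 h above the 3 of 24 h and 2 weeks, as did 20 of the 208 miRNAs that reached 50 CPM in some library, 9.62%, while 11.1% had them all below. For miR-133a-3p the lowest early library was 4.40-fold above the highest late one. The separation of miR-133a-3p held under each scaling tried, miR-486b-5p left out of the totals included, whereas that of miR-133a-5p, at 0 in the later libraries, cannot change with scaling. This grouping by time was chosen after the levels were seen, and no test was made of it.

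The balance of the 3p products differed between libraries. Of the counts of miR-133a-3p and miR-133b-3p together, miR-133b-3p made up 6.01% (4.96 to 7.26) in control 4 h and 10.4% (9.61 to 11.3) in SE 4 h. It made up 2.06% (1.64 to 2.59) in control 8 h and 7.86% (7.19 to 8.59) in SE 8 h. It made up 18.1% (14.5 to 22.4) in control 24 h, 32.5% (29.2 to 35.9) in SE 24 h and 0.554% (0.152 to 2.00) in SE 2 weeks. At each of 4 h, 8 h and 24 h the share was higher in SE, with intervals that did not overlap. In estimated molecules they did, for example 1.72% (0.305 to 9.14) in control 8 h and 8.18% (4.36 to 14.8) in SE 8 h. The 2 miRNAs are close relatives in sequence and reads were aligned with mismatches allowed, so how their reads were divided is uncertain.

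Summed over the 4 members, the level was 1051 CPM in control 4 h, 1299 in SE 4 h, 833 in control 8 h and 1635 in SE 8 h. It was 117 CPM in control 24 h, 267 CPM in SE 24 h and 120 CPM in the 2-week SE library. The share of counts lay between 0.0135% (0.0123 to 0.0148), in control 24 h, and 0.188% (0.183 to 0.193), in SE 8 h. The sum in SE was 1.24-fold that in control at 4 h (1.17 to 1.30), 1.96-fold at 8 h (1.88 to 2.05), 2.28-fold at 24 h (2.03 to 2.57) and 1.03-fold at 2 weeks (0.892 to 1.18). At 4 h and 2 weeks the direction rests on the scaling, since the ratios were 0.842 and 0.968 when miR-486b-5p was left out of the library totals. At 24 h the ratio was 1.49 by library size alone. Without miR-133a-3p it was 4.84 at 8 h and 0.0863 at 2 weeks.

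Mature sequences of 2 of the 4 members were matched in RefSeq (GRCm38.p6). They are shown, with seeds (bases 2 to 8) in capitals, because the seed sets which targets each miRNA can pair with. miR-133a-3p belongs to the same seed family as miR-133b-3p, and the sequences of miR-133a were not used here. The sequences shown stand at chr1:20682834-20682855 (plus strand) and chr14:54975710-54975731 (minus strand).
miR-133b-3p: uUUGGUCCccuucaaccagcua
miR-208b-3p: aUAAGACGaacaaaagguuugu
The hairpin of Mir133b, 119 bases on the plus strand of chromosome 1, is shown to place the counted 3p product, in capitals, within its precursor.
Mir133b: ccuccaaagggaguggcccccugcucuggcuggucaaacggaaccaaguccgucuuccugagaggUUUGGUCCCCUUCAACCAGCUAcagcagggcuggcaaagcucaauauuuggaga

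The members come from 4 loci, given in GRCm38 with the GENCODE annotation. miR-133a is encoded by Mir133a-1 on chromosome 18 (10782909 to 10782976, minus strand), in an intron of its non-coding host gene Mir133a-1hg and opposite an intron of Mib1. It is also encoded by Mir133a-2 on chromosome 2 (180398379 to 180398482, plus strand), which lies 9254 bases from Mir1a-1 and in no other annotated gene. Counts of the mature miRNA cannot be divided between these loci. Mir133b lies on chromosome 1 (20682769 to 20682887, plus strand) in an exon of the lincRNA Gm28653, 3686 bases from Mir206. Mir208b lies on chromosome 14 (54975700 to 54975776, minus strand) in an intron of Myh7, and its close relative Mir208a in an intron of the neighbouring Myh6.

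Other miRNAs enriched in muscle were read in the same way. Of 9 listed products of the miR-378 and miR-486 hairpins, 7 were counted. miR-378a-3p, encoded in a gene of mitochondrial biogenesis, lay between 2051 CPM in SE 2 weeks and 3794 CPM in SE 4 h and was called in none of the 4 comparisons of SE with control. Its 4 early libraries, from 2936 CPM up, were all above the 3 later ones, from 2263 CPM down, as were those of miR-378c, from 306 CPM up and 293 CPM down. Both are among the 9.62% of miRNAs with this order. miR-378c was called higher in SE at 8 h, with a log2 fold change of 0.64, and lower at 2 weeks, with -0.69. miR-486b-5p, which red blood cells also carry in large amounts, was called higher at 24 h, with 0.80. This call rests on the TMM-adjusted library sizes. Its counts were 2286334 of 3412752 in control 24 h and 2829085 of 3718313 in SE 24 h, less than 1.5-fold apart by library size alone. From 4 h to 2 weeks, in order of time, 0 of 4, 1 of 3, 1 of 3 and 1 of 3 tested were called, beside 67.2%, 50%, 44.7% and 31.7% of all miRNAs tested, with median log2 fold changes of -0.06, 0.09, -0.10 and -0.15, beside -0.06, 0.23, 0.04 and 0.01 over all miRNAs tested. A list of 9 other products of the members' hairpins and close relatives was not analysed here.

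A list of 9 miRNAs assigned to heart by the study was also read. The study took the assignments from published reports, for miRNAs found in these samples, so the list is no independent evidence. Among brain cells, the study also assigns miR-133a-3p to oligodendrocytes and miR-133b-3p to neurons. The heart list was counted in full and holds 3 of the members. At 4 h, 7 were tested, where 32.3% of all miRNAs tested were called higher and 34.9% lower, 4 called higher (miR-126a-3p, miR-126a-5p, miR-15a-5p and miR-133b-3p) and 2 lower (miR-133a-5p and miR-145a-5p). Of these, miR-145a-5p reached the minimum in control 4 h alone. At 8 h, 3 of 6 were called higher, where 35.1% of all were, and none lower, where 14.9% were. All 3 were the miR-133 products, 2 of them past the minimum in SE alone. At 24 h, 2 of 6 were called higher, again miR-133 products, and miR-15b-5p lower, where 24.8% of all were called higher and 19.9% lower. There miR-15b-5p reached the minimum in control 24 h alone and miR-133b-3p in SE 24 h alone. At 2 weeks, 1 of 5 was called higher, miR-133a-3p, and miR-15a-5p lower, where 18.6% of all were called higher and 13.1% lower. The list's median log2 fold change was 1.00, 0.62, 0.12 and -0.19 in these comparisons, beside the medians over all miRNAs tested given above.

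Markers of other sources were read beside these values. The erythroid list of 5 miRNAs took 76.1% of counts in control 4 h, 67.6% in SE 4 h, 67.5% in control 8 h, 62.6% in SE 8 h, 67.1% in control 24 h, 76.1% in SE 24 h and, at 2 weeks, 63.3% in SE. Nearly all of it was miR-486b-5p, which is also on the list of other muscle-enriched miRNAs, so these shares cannot be read as erythroid alone. miR-451a, of the same list, had from 3 counts in control 4 h (1.72 CPM) to 81 in control 24 h (20.5 CPM). miR-486a-5p was at 0 in 6 of 7 libraries and miR-144-3p at 0 in control 4 h. Of the erythroid list, 2 of 3 tested were called higher in SE at 4 h and at 24 h, where 67.2% and 44.7% of all miRNAs tested were called (32.3% and 24.8% higher). Those at 4 h, miR-144-3p and miR-144-5p, reached the minimum in SE 4 h alone. Those at 24 h, miR-144-5p (731 and 906 counts) and miR-486b-5p, were less than 1.5-fold apart by library size alone. At 8 h and at 2 weeks 1 of 3 was called lower, where 50% and 31.7% of all were called (14.9% and 13.1% lower). The study measured haemolysis by absorbance and used only plasma samples under a set limit. The part of the erythroid list in the members' levels was not tested.

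The vascular smooth muscle list of 4, led by miR-143-3p, summed to 12989 CPM in control 4 h, 41362 in SE 4 h, 11682 in control 8 h, 19674 in SE 8 h, 10562 in control 24 h, 12934 in SE 24 h and, at 2 weeks, 16415 in SE. miR-143-3p was called higher in SE at 4 h, 8 h and 2 weeks. The only other one tested, miR-145a-5p, was lower at 4 h, past the minimum in control 4 h alone. Like miR-133a-5p, miR-145a-5p had counts in the 4 early libraries (90, 53, 28 and 96) and 0 in the 3 later ones. The liver list of 4, with 3 counted, was led by miR-192-5p, called higher in SE at 4 h (0.78) and 8 h (0.74), while miR-122-5p was at 0 in 4 libraries. Of the platelet and endothelium list of 3, 2 were called higher at 4 h and none in the other SE against control comparisons. Of the neuron list of 6, led by miR-128-3p, 1 of 2 tested was lower at 4 h, 2 of 3 higher at 8 h and none of 1 called at 24 h and 2 weeks, and miR-124-3p was at 0 except for 49 counts in SE 24 h. Each neuron call, of miR-9-5p at 4 h and 8 h and of miR-138-5p at 8 h, passed the minimum in 1 library alone, which fixed its direction. The shares of all miRNAs called in these comparisons are those given above. The part of these lists in the members' levels was not tested.

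The miRNAs most like miR-133a-3p over the 7 libraries, by Pearson r of log2(CPM + 1) among 207 others and given as a description, were miR-410-3p (r = 0.962), miR-204-5p (0.938), miR-133a-5p (0.937), miR-92b-3p (0.919) and miR-145a-5p (0.919). miR-410-3p, of the imprinted Dlk1-Dio3 cluster, lay between 95.8 and 173 CPM in the 4 early libraries and between 12.3 and 48.5 CPM in the later ones. miR-204-5p had 194, 183, 144 and 414 counts early, and 0, 38 and 0 in control 24 h, SE 24 h and SE 2 weeks. For miR-133b-3p the r with miR-133a-3p was 0.625. The points share depth and scaling within a library.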

How the data were processed

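Small RNA from Ago2 immunoprecipitates of plasma was sequenced in 7 libraries, 1 per condition, each a pool of 10 mice. In Chimera, the authors removed adapters, kept reads in a size range, matched them by BLASTn to mouse miRBase with as many as 2 mismatches, and deposited raw counts per mature miRNA. The version of Chimera is not given in the sources used here. The members and lists were chosen with earlier results of these data known.

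Counts were scaled by TMM over all 7 libraries in edgeR 4.0.16 (R 4.3.3, limma 3.58.1), with factors from 0.754 in SE 24 h to 1.22 in control 8 h. Library totals ran from 2043220 to 5405357. The exact test used the BCV of 0.1 of the study's methods, the 1.5-fold threshold of its supplementary legends and a prior count of 0.125. Those legends use 50 CPM to call a miRNA present for organ enrichment, and it was taken here as the minimum for testing. In every comparison the miRNAs called numbered as many as those past 1.5-fold. The quasi-likelihood test took miRNAs that reached 50 CPM in 3 or more of the 6 libraries, with Benjamini-Hochberg adjustment over all of them, and its standard errors were derived from its F statistic. DESeq2 1.42.0 was an alternative, with adjusted p-values over 573 miRNAs. The low-count value was the mode of a kernel density of log counts from 6 to 300 with a bandwidth of 0.15. Folds against 0 used a floor of 3 counts per library. Python 3.11.15, numpy 2.4.6, pandas 2.3.3, scipy 1.17.1 and matplotlib 3.10.9 were used.

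The miRNAs named are the members, the listed products of the same hairpins, other muscle-enriched miRNAs, the study's heart list and the 5 most like miR-133a-3p. Lists for erythroid cells, liver, vascular smooth muscle, platelets and endothelium, and neurons were read for comparison, and miRNAs of these lists are named by their abundance, by a call or by counts of 0, after their values were seen. Alternatives were other BCVs, scalings, minimums, thresholds, prior counts, controls, libraries left out, time-point as a block and estimated molecules. The comparisons of SE libraries between times and the early against late grouping were chosen after seeing the data.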

Additional observations from a re-analysis of the deposited data

Results flagged for a closer look

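miR-133a-5p differed in direction between time-points under the same contrast. Its log2 fold change in SE against control was 2.96 at 8 h, from 40 to 264 counts, and -1.01 at 4 h, from 184 of 2043220 counts to 223 of 5405357. Each value rests on 1 library a side, and the difference between the time-points was not tested. In estimated molecules the counts were 2 in control 4 h, 6 in SE 4 h, 1 in control 8 h and 5 in SE 8 h, and the intervals of both folds, 0.0807 to 4.57 at 4 h and 0.571 to 241 at 8 h, include 1 and overlap.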

How the results depend on the processing

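No member was called in the 3 against 3 comparison under any alternative run. The separation of miR-133b-3p by treatment and of miR-133a-3p by time held under each scaling. Levels in estimated molecules gave the same order but are no separate check. The value that divides the counts of a library cancels in a level, which leaves scaling by library size and rounding. For miR-133b-3p the gap there rests on 1 estimated molecule in control 4 h against 5 in SE 24 h. The calls over all miRNAs moved as well, and are given beside the members' as higher and lower. At 8 h the 3 calls became 2 at BCV 0.4 (19 and 4 of 154 miRNAs) and 2 in estimated molecules (17 and 9 of 156), all higher in SE. They became 4 with any count (155 and 102 of 424) and from 10 CPM (141 and 86 of 346), where miR-208b-3p was added as lower in SE, from 62 counts to 0. At 4 h the 2 calls became 0 at BCV 0.4 (20 and 38 of 189) and 0 in estimated molecules (22 and 9 of 200). They became 3 with any count (231 and 79 of 429) and from 10 CPM (140 and 78 of 281), where miR-208b-3p was added as higher in SE, from 0 counts to 65. At 24 h the 2 calls became 1 at BCV 0.4 (8 and 11 of 141) and 0 in estimated molecules (8 and 12 of 141). They became 3 with any count (135 and 126 of 412) and from 10 CPM (121 and 109 of 334), where miR-208b-3p was added as lower in SE, from 97 counts to 0. At 2 weeks the 1 call became 0 at BCV 0.2 (14 and 12 of 145), 0 at BCV 0.4 (3 and 5 of 145) and 0 in estimated molecules (11 and 3 of 145). It became 3 with any count (133 and 105 of 420) and 3 from 10 CPM (89 and 89 of 313), since miR-133b-3p (-4.62) and miR-208b-3p (-3.06) were then tested and called lower in SE. Against control 4 h there were 3 calls (45 and 76 of 182), all lower in SE, and miR-133a-5p and miR-133b-3p reached the minimum in control 4 h alone. The 3 against 3 comparison called 3 miRNAs with any count and 13 with DESeq2, against 0.

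Directions turned with the control used. With the 3 controls pooled, the log2 fold change of miR-133a-5p at 4 h was 1.17, and that of miR-133a-3p was -1.60 at 24 h and -2.23 at 2 weeks. In that comparison at 4 h miR-133a-5p reached the minimum in SE 4 h alone. Against control 4 h and control 8 h, miR-133a-3p at 2 weeks was at -2.93 and -2.77. The summed level in SE over control was 1.14, 1.85 and 1.49 at 4 h, 8 h and 24 h by library size alone. Without miR-486b-5p in the totals it was 0.842, 1.60 and 0.968 at 4 h, 8 h and 2 weeks, and without miR-133a-3p it was 4.84 at 8 h and 0.0863 at 2 weeks. With log2(CPM + 10), 3 of the 5 miRNAs most like miR-133a-3p were the same. The cause of these changes was not tested.

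Other scalings moved the median log2 fold change of all miRNAs tested at 4 h from -0.06 to as low as -0.21 and at 8 h from 0.23 to as low as 0.08. The labels carry no replicate numbers, so SE and control were paired by time-point alone. With time-point as a block in edgeR's quasi-likelihood test, the log2 fold change of miR-133a-3p was 0.78, with a standard error of 0.264 against 0.937 without the block (unadjusted p 0.0336 against 0.531, adjusted p 0.310, range over the alternatives 0.310 to 0.995) and that of miR-133b-3p 2.12 (adjusted p 0.323, range 0.273 to 0.897). The values of miR-133b-3p in controls, miR-133a-5p and miR-208b-3p are imprecise, since their counts stand for 0 to 2 estimated molecules in most libraries.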
